A study of Mus musculus with 28 samples.

Results

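The genes of the E2F transcription factors and of their pocket protein partners were followed through the conversion of Pre-B cells into macrophages. The members were E2f1 to E2f8, Rb1 and Rbl1, taken by symbol from the table of TPM values (a transcript abundance per length, relative to all others of the library). All 10 were among the 55450 genes listed. All 10 were also among the 16412 genes tested, which are those whose TPM averaged 0.1 or more. The cells were C10, a mouse line derived from HAFTL Pre-B cells, and every group carried the CEBPalpha-ER transgene, in which C/EBPα is fused to the hormone-binding part of the estrogen receptor and enters the nucleus once the hormone is added. The groups were uninduced cells (0h) and cells taken at 1h, 12h and 48h of treatment with 100 nM β-estradiol, 10 nM IL-3 and CSF-1, so the hormone and the cytokines cannot be told apart. RNA-seq held 3 libraries per time point, labelled as biological replicates, 12 in all. Promoter capture Hi-C, which lists the restriction fragments in contact with promoters, held 1 merged list of 2 replicates per time point. All results are from 1 cell line, with no cells that lack the transgene and no untreated cells at the later times in these libraries.

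E2F proteins bind DNA mostly as dimers with a DP protein and control genes that a cell needs to enter and complete S phase. E2F1, E2F2 and E2F3 are known as activators, and RB binds and silences them until cyclin-dependent kinases phosphorylate it. E2F4 and E2F5 act mainly as repressors together with p107 (Rbl1) and p130 (Rbl2), in part within the DREAM complex of resting cells, and E2F6 represses with Polycomb proteins and without a pocket protein. E2F7 and E2F8 are atypical, since they bind DNA without DP and repress E2F targets. Several of these genes are themselves known E2F targets, and RB is also known as a partner of C/EBP factors in myeloid cells.

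The labelled cell states were checked with their markers. All 8 Pre-B cell markers were lower at 48h than at 0h, and their summed TPM went from between 293 and 333 to between 26.9 and 38.4. Of 8 macrophage markers 7 were tested and all 7 were higher, with sums from between 9.61 and 10.9 to between 980 and 1149. Adgre1, which encodes the macrophage antigen F4/80, was below 1 TPM in every library. The 5 granulocyte markers moved with time as well, from a summed TPM of 0 to 0.36 at 0h and 0 to 0.38 at 1h to between 3.03 and 6.20 at 12h and between 1.36 and 4.04 at 48h. Of this list 2 genes passed the filter and 1, S100a8, was called higher at 48h, while Mpo and S100a9 were listed at 0 in every library. The 4 T cell markers summed to at most 0.53 TPM in any library, with Cd3e and Cd3g at 0 in all. The part of such cells in the results was not tested. TPM keep no record of depth. Between 70.3% and 82.9% of each library's TPM came from a few ribosomal RNA genes, so the remainder shared by all other genes differed between libraries. The median gene stood 0.59 above 0h in the 1h libraries and 0.34 above it in those of 12h on the log2 scale, and its value at 48h was -0.18. From 1h to 12h it changed by -0.29, and from 12h to 48h by -0.62. After median-of-ratios scaling these medians lay between -0.01 and 0.07. Each change below is a difference of log2(TPM + 0.1), which understates the change of genes with low TPM, and scaled values are given where they alter a call. The comparisons of 1h, 12h and 48h use the same 0h libraries.

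Promoter sequence was at hand for 7 of the 10 members, in 9 windows from 250 bases before to 50 after a RefSeq transcription start (GRCm38.p6); E2f4, E2f5 and Rb1 had none. The windows were searched on both strands for the E2F sites TTTCGCGC and TTTGGCGC, the core GGCGGGAA, the cell cycle element TTTGAA known as CHR, and the C/EBP site TTGCNNAA. The 4 genes with a match in their first window are shown, so that their promoters can be compared letter by letter. Their RNA was lower at 48h than at 0h, as was that of E2f1, E2f6 and E2f7, whose windows held no match. The E2f1 window, chr2:154569377-154569676, lies inside the annotated gene (154559407 to 154569892, minus strand), so sequence before the start of that gene was not searched. The second windows of E2f2 and E2f3 also lie inside their genes. No matches overlap one another. The matches are in capitals, and CHR on the reverse strand reads TTCAAA.
E2f2: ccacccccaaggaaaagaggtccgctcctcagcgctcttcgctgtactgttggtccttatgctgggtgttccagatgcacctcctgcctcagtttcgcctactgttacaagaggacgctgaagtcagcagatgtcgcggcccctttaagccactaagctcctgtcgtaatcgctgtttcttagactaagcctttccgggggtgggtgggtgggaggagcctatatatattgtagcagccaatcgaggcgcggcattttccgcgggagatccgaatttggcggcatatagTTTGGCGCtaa
Rbl1: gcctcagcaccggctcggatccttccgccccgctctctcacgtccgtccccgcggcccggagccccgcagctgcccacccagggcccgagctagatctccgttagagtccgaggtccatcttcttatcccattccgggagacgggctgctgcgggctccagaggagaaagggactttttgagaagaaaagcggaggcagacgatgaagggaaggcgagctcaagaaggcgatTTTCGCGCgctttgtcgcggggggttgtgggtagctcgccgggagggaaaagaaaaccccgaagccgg
E2f3: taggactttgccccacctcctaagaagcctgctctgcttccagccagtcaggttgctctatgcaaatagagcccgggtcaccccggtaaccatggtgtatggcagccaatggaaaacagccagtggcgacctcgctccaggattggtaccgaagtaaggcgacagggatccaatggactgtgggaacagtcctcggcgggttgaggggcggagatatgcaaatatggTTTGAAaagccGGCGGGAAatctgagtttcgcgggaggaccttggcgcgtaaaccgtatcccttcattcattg
E2f8: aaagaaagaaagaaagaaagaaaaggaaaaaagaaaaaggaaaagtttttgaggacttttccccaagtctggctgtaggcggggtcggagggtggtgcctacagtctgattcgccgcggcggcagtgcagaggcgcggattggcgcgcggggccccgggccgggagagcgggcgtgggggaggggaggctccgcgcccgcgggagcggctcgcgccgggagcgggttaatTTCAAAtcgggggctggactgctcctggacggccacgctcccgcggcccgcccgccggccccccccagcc
They lie at chr4:136172024-136172323 on the plus strand for E2f2, chr2:157204485-157204784 on the minus strand for Rbl1, chr13:29986014-29986313 on the minus strand for E2f3 and chr7:48881547-48881846 on the minus strand for E2f8. Rbl1 had the only TTTCGCGC among the 9 windows, at position -18 from the start, and 0.323% of 32851 mouse windows of this length held it. E2f2 had the only TTTGGCGC, at position 39, which 0.514% of windows held. The core GGCGGGAA was found in E2f3, beside 2.19% of windows, and TTTGAA in E2f3, E2f8 and the second window of E2f2, beside 17.9%. TTGCNNAA was in none of the 9 windows and in 10.8% of all. Base composition differed among them, from 54.7% G and C in the first E2f2 window to 78.7% in the second E2f3 window.

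The activator E2f1 (chromosome 2, 154559407 to 154569892, minus strand, GRCm38 as for all positions) peaked at 1h. Its TPM were 3.06, 2.37 and 3.11 in the 3 libraries at 0h, 6.56, 5.38 and 6.25 at 1h, 1.05, 1.28 and 1.39 at 12h, and 1.29, 1.03 and 1.47 at 48h. The 1h libraries lay above all others, and those of 12h and 48h lay below 0h and overlapped each other. Against 0h, E2f1 rose by 1.07 ± 0.20 (SE) on the log2 scale at 1h (limma, Benjamini-Hochberg adjusted p = 0.00395), and it was lower at both later times, with -1.14 ± 0.20 at 12h (adjusted p = 0.00161) and -1.11 ± 0.20 at 48h (adjusted p = 0.000882). After scaling, the rise at 1h was 0.42 and was no longer called (adjusted p = 0.216), while both decreases were (-1.45 and -0.73).

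E2f2, the activator with the TTTGGCGC match (chromosome 4, 136172394 to 136196057, plus strand), had the largest decrease of the 10 members at 12h and 48h on this scale. It was at 2.01, 1.65 and 1.86 TPM at 0h and 2.65, 2.80 and 2.33 at 1h, then at 0.14, 0.12 and 0.14 at 12h, and at 48h it was listed at 0 in replicate 1 and was at 0.04 in both others. No library of 12h or 48h overlapped those of 0h or 1h. Its log2 change was -3.05 ± 0.25 at 12h (adjusted p = 4.81e-06) and -3.95 ± 0.25 at 48h (adjusted p = 2.09e-07), and at 1h it was 0.47 ± 0.25 (adjusted p = 0.176). At these low levels the size depended on the value added before the logarithm: over the alternatives the 48h change ranged from -5.98 to -1.47, and it was called under all 22. With 1 added in place of 0.1, Rbl1 fell slightly further (-1.53 against -1.47).

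E2f3, the third activator (chromosome 13, 29906575 to 29986063, minus strand), was not called at 1h and fell later. Its TPM were 1.83, 1.49 and 1.34 at 0h, 1.66, 1.64 and 1.72 at 1h, 0.71, 0.82 and 0.94 at 12h, and 0.53, 0.51 and 0.44 at 48h. Against 0h it changed by 0.11 ± 0.21 at 1h (adjusted p = 0.722), -0.84 ± 0.21 at 12h (adjusted p = 0.011) and -1.47 ± 0.21 at 48h (adjusted p = 0.000136). Scaling placed the 1h value at -0.51 (adjusted p = 0.125), on the other side of 0.

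**Figure D1:**
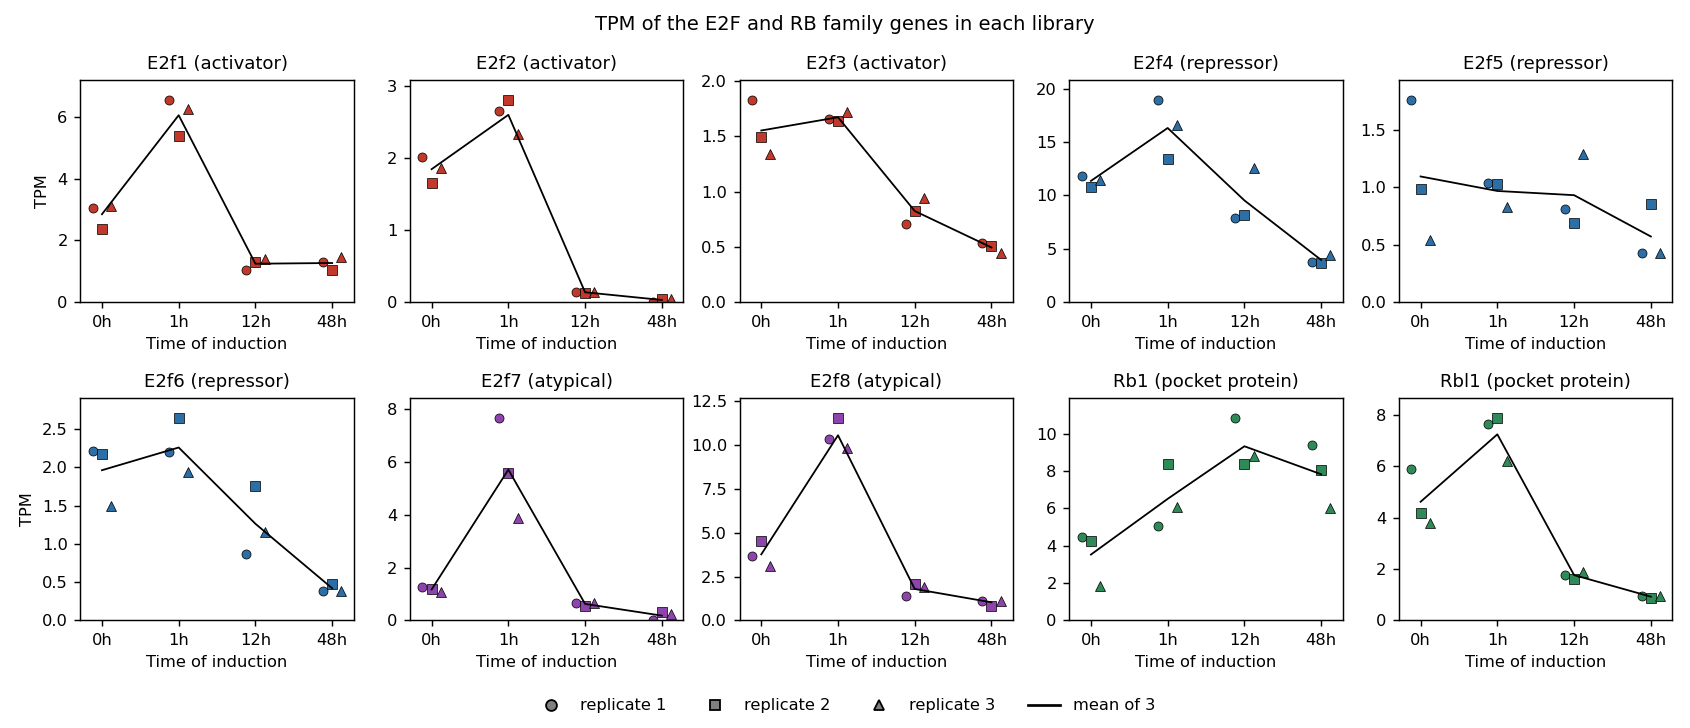
TPM of each of the 10 genes in each of the 12 libraries (vertical axes, linear and starting at 0, scaled per gene) against time of induction; symbols are replicates and the line joins the means of 3. E2f1, E2f7, E2f8 and Rbl1 peak at 1h, E2f2 is at or below 0.14 TPM from 12h on, and Rb1 is at 6.04 TPM or more at 12h and 48h.

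Among the repressors, E2f4 (chromosome 8, 105297663 to 105305370, plus strand) was the most abundant E2F gene, with a mean of 10.3 TPM over the 12 libraries. It was at 11.82, 10.78 and 11.43 TPM at 0h, 18.93, 13.43 and 16.55 at 1h, 7.86, 8.10 and 12.57 at 12h, and 3.73, 3.64 and 4.42 at 48h. The 12h libraries overlapped those of 0h, and every 48h library lay below every other library. Against 0h the log2 change was -1.51 ± 0.20 at 48h (adjusted p = 9.44e-05), 0.51 ± 0.20 at 1h (adjusted p = 0.09) and -0.28 ± 0.20 at 12h (adjusted p = 0.326), and the last was called after scaling (-0.62, adjusted p = 0.0159).

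E2f5 (chromosome 3, 14578641 to 14606309, plus strand) was the one member not called in any comparison. Its TPM were 1.76, 0.98 and 0.54 at 0h, 1.04, 1.03 and 0.83 at 1h, 0.81, 0.69 and 1.29 at 12h, and 0.43, 0.85 and 0.43 at 48h, and the 0h libraries overlapped those of every later time. The log2 change at 48h was -0.76 ± 0.40 (adjusted p = 0.153). Without replicate 3 of 0h it was -1.14 and was called (adjusted p = 0.0383). E2f6 (chromosome 12, 16810963 to 16839742, plus strand) was at 2.21, 2.18 and 1.5 TPM at 0h, 2.20, 2.64 and 1.94 at 1h, 0.87, 1.76 and 1.16 at 12h, and 0.39, 0.48 and 0.39 at 48h. It fell by 1.97 ± 0.27 on the log2 scale at 48h (adjusted p = 0.000109), with no overlap between the libraries. At 12h the change of -0.63 ± 0.27 was not called (adjusted p = 0.106) and the libraries overlapped, and after scaling it was called (-0.94, adjusted p = 0.0151).

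The atypical E2F genes rose furthest at 1h. E2f7 (chromosome 10, 110745439 to 110787384, plus strand) was at 1.27, 1.18 and 1.06 TPM at 0h and 7.64, 5.59 and 3.88 at 1h, with every 1h library above every 0h library. It was at 0.67, 0.53 and 0.67 at 12h, and at 48h it was listed at 0 in replicate 1 and was at 0.31 and 0.23 in the others. E2f7 changed by 2.14 ± 0.46 on the log2 scale at 1h (adjusted p = 0.00672), -0.82 ± 0.46 at 12h (adjusted p = 0.205) and -2.41 ± 0.46 at 48h (adjusted p = 0.00108). Every 12h library lay below every 0h library. The 12h change was called when the 0h and 12h libraries alone were fitted (SE 0.21, limma adjusted p = 0.044). After scaling the 1h change was 1.5 and missed the threshold (adjusted p = 0.0868). It was also not called with 0.01 added in place of 0.1 (limma adjusted p = 0.129) or without the libraries numbered 3 (0.072). The 48h change ranged from -3.68 to -0.89 over the alternatives and was called under all 22.

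E2f8, whose promoter holds the CHR match (chromosome 7, 48866429 to 48881596, minus strand), was at 3.67, 4.52 and 3.10 TPM at 0h and at 10.32, 11.51 and 9.82 at 1h. It then went to 1.40, 2.05 and 1.92 at 12h and 1.13, 0.83 and 1.13 at 48h, and both sets lay below 0h without overlap. E2f8 changed by 1.48 ± 0.21 at 1h (adjusted p = 0.000866), -1.03 ± 0.21 at 12h (adjusted p = 0.00389) and -1.77 ± 0.21 at 48h (adjusted p = 3.97e-05). It was the one member called at 1h under both scalings (0.82 ± 0.20 after scaling, adjusted p = 0.0261).

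The pocket protein genes moved apart. Rb1, which encodes the retinoblastoma protein (chromosome 14, 73183673 to 73325822, minus strand), was at 4.47, 4.25 and 1.87 TPM at 0h, 5.08, 8.37 and 6.10 at 1h, 10.83, 8.39 and 8.79 at 12h, and 9.41, 8.06 and 6.04 at 48h. All libraries of the later times lay above those of 0h, and the 12h and 48h libraries overlapped. Its log2 change was 0.93 ± 0.32 at 1h (adjusted p = 0.0526; without replicate 3 of 0h it was 0.54, adjusted p = 0.17), 1.47 ± 0.32 at 12h (adjusted p = 0.00517) and 1.2 ± 0.32 at 48h (adjusted p = 0.00951). The last was not called when the 0h and 48h libraries alone were fitted (adjusted p = 0.0614). Rb1 was the only member of the 10 that was higher at 12h and at 48h.

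Rbl1, which encodes p107 and holds the TTTCGCGC match (chromosome 2, 157145893 to 157204534, minus strand), was at 5.90, 4.16 and 3.79 TPM at 0h, 7.66, 7.86 and 6.20 at 1h, 1.78, 1.62 and 1.89 at 12h, and 0.96, 0.87 and 0.94 at 48h. The 4 time points did not overlap, in the order 1h, 0h, 12h and 48h from high to low. For Rbl1 the log2 change was 0.66 ± 0.20 at 1h (adjusted p = 0.0337), -1.32 ± 0.20 at 12h (adjusted p = 0.000509) and -2.18 ± 0.20 at 48h (adjusted p = 4.29e-06). After scaling the 1h change was 0.0054 (adjusted p = 1), where the median gene stood at 0.02.

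Counted over the members, 4 of 10 were higher at 1h and none lower, beside 24.1% of all genes tested called higher and 1.41% called lower. After scaling 1 was higher and none lower, beside 5.42% and 4.92%. At an unadjusted p under 0.05 the lower members at 1h numbered 0 as deposited and 1 after scaling. At 12h 1 was higher and 5 lower, beside 22.3% and 7.82%, and after scaling 1 and 7, beside 16% and 14.5%. At 48h 1 was higher and 8 lower, beside 15.9% and 27.2%, and after scaling again 1 and 8, beside 24.5% and 22%. With a change beyond 1 on the log2 scale also required, 3 were higher and none lower at 1h (16.7% and 1.08% of genes), 1 higher and 4 lower at 12h (17.7% and 5.76%), and 1 higher and 8 lower at 48h (13.5% and 23.1%). The median log2 change of the 10 members was 0.58 at 1h, close to the 0.59 of all genes, -0.83 at 12h and -1.64 at 48h. By overlap alone, 7 members had every 1h library above every 0h library and 0 had every one below, beside 40.8% and 3.28% of genes. For 12h these were 1 and 6, beside 30.6% and 12.4%, and for 48h they were 1 and 8, beside 19.2% and 30.8%. In RNA from a whole culture, fewer cells in cycle and less RNA per cell cannot be told apart.

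**Figure D2:**
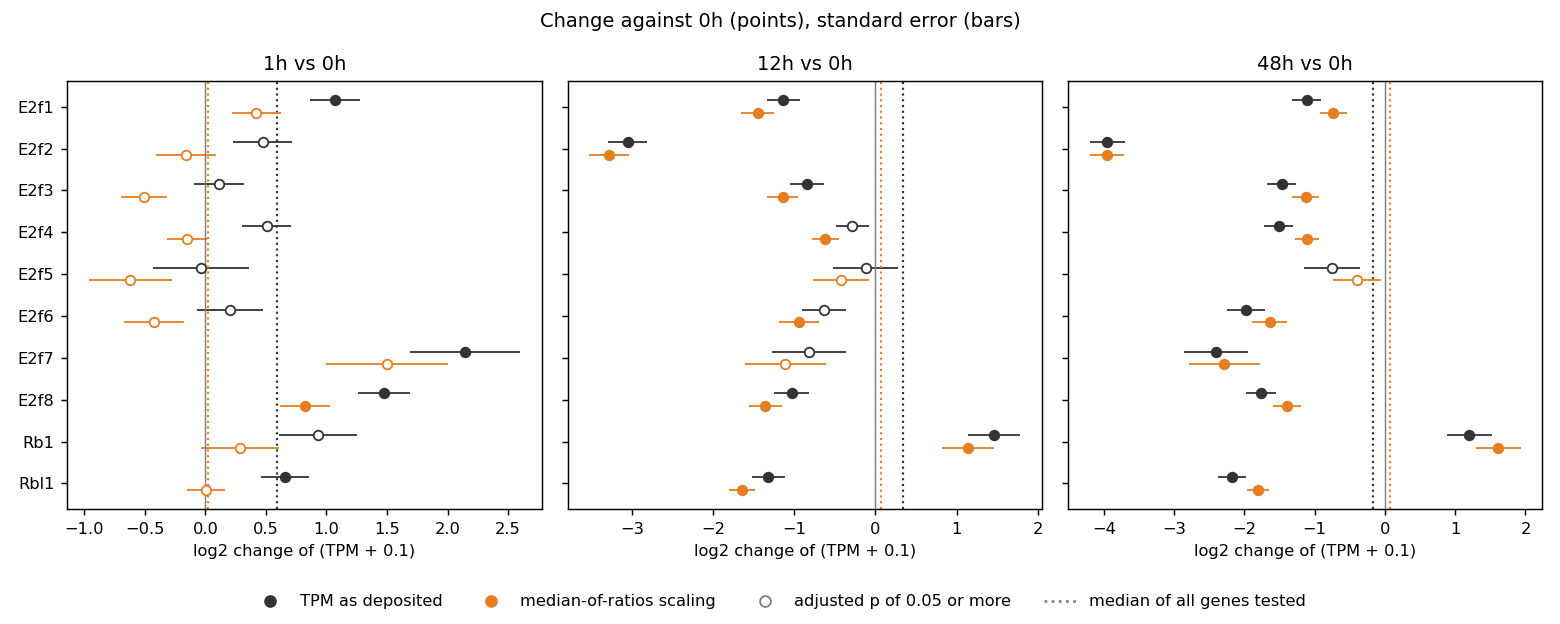
Log2 change of TPM + 0.1 against 0h for each gene at 1h, 12h and 48h (points, with standard errors as bars), as deposited and after median-of-ratios scaling; open points have an adjusted p of 0.05 or more and dotted lines mark the median of all genes tested. Rb1 lies to the right of 0 and 8 genes lie to the left with filled points at 48h under both scalings.

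The steps between neighbouring later times divided the members. From 1h to 12h 8 of 10 members fell and none rose, beside 15% and 6.98% of all genes. E2f2 fell by 3.53 ± 0.25 on the log2 scale (adjusted p = 3.87e-06). The atypical E2f7 fell by 2.96 ± 0.46 (adjusted p = 0.000865) and E2f8 fell by 2.51 ± 0.21 (adjusted p = 1.76e-05). E2f1 fell by 2.21 ± 0.20 (adjusted p = 3.02e-05) and Rbl1 fell by 1.97 ± 0.20 (adjusted p = 5.28e-05). These 5 calls held after scaling. The changes of E2f3, E2f4 and E2f6 were -0.95, -0.79 and -0.83 (adjusted p = 0.00757, 0.0173 and 0.0485). After scaling 6 fell and none rose, beside 8.77% and 11.3% of genes, since E2f4 and E2f6 were not called. At an unadjusted p under 0.05, 0 members rose as deposited and 1 after scaling. From 12h to 48h 7 fell and none rose, beside 31.7% and 4.1%, where the median gene fell by 0.62. E2f4 and E2f6 had their larger change here, with -1.23 ± 0.20 (adjusted p = 0.00079) and -1.34 ± 0.27 (adjusted p = 0.00267), while for the other 6 that fell from 1h to 12h the earlier step was the larger. After scaling the changes of E2f4 and E2f6 were -0.49 and -0.70 from 12h to 48h and -0.47 and -0.52 from 1h to 12h, none of them called. The difference between the steps was not tested. No member rose from 12h to 48h at an unadjusted p under 0.05 either (0 of 10). After scaling none fell (4 at an unadjusted p under 0.05), beside 11.9%, and 1 rose, beside 10.5%. The riser was E2f1 (0.72 ± 0.20 after scaling, adjusted p = 0.0235, and 0.02 ± 0.20 as deposited).

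A ratio of TPM within 1 library does not depend on the scaling between libraries. The summed TPM of E2f1, E2f2 and E2f3 over that of E2f4, E2f5 and E2f6 was 0.437, 0.395 and 0.468 at 0h, 0.490, 0.574 and 0.533 at 1h, 0.199, 0.210 and 0.164 at 12h, and 0.400, 0.318 and 0.372 at 48h. The 12h libraries were the lowest without overlap, and those of 48h overlapped those of 0h. Taken from mean log2(TPM + 0.1), which weighs each gene alike, the log2 ratio was also lowest at 12h, but at 48h it lay between -1.47 and -1.10, below the -0.66 to -0.13 of 0h without overlap. With E2f7 and E2f8 added to the lower set, the means across 0h, 1h, 12h and 48h were 0.324 ± 0.039, 0.290 ± 0.021, 0.158 ± 0.015 and 0.292 ± 0.031 (SD, n = 3), so 12h stayed the lowest and 1h no longer stood above 0h. The summed TPM of the 8 E2F genes, which does depend on the scaling, was 25.6 ± 1.88, 46.1 ± 4.25, 16.3 ± 3.39 and 7.91 ± 0.56 across 0h, 1h, 12h and 48h. E2f4 held 44.5% ± 2.84 of that sum in uninduced cells, 35.3% ± 4.17 at 1h, 57.9% ± 4.92 at 12h and then 49.6% ± 2.18. The atypical E2f7 and E2f8 together held 19.3% ± 2.92 in uninduced cells, 35.2% ± 3.61 at 1h, and then 15% ± 1.97 and 15.3% ± 0.57.

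The ratio of Rb1 to Rbl1, looked at after their values were seen, was 0.758, 1.02 and 0.493 at 0h and 0.663, 1.07 and 0.984 at 1h. It was 6.08, 5.18 and 4.65 at 12h and 9.80, 9.26 and 6.43 at 48h, with no overlap between these later libraries and the earlier ones. Rb1 thus stood near the level of Rbl1 up to 1h and several times above it from 12h.

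**Figure D3:**
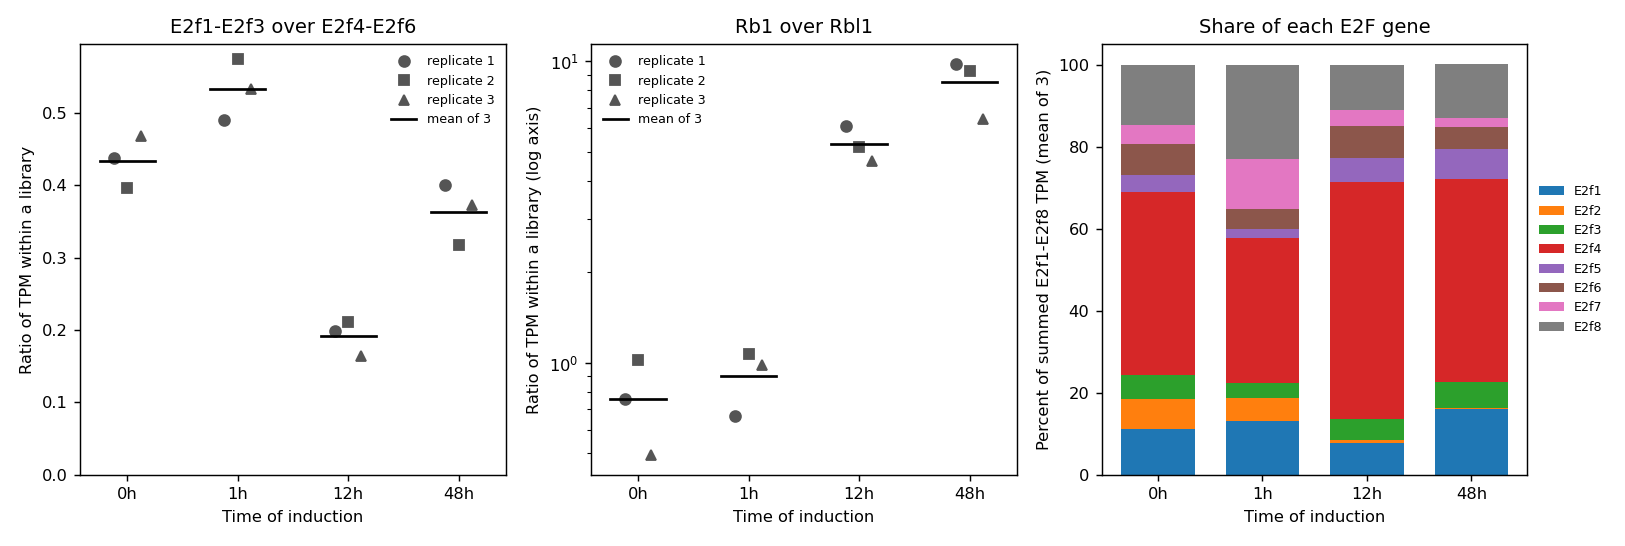
Ratios of TPM within each library for E2f1 to E2f3 over E2f4 to E2f6 (left, linear axis) and for Rb1 over Rbl1 (middle, log axis), with replicates as symbols and their means as lines, and the mean share of each E2F gene in the summed E2F TPM (right, percent). The left ratio is lowest at 12h (0.191 ± 0.024), the middle one is above 4.65 in every library of 12h and 48h, and E2f4 is the largest share at each time.

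Of 10 genes for DP proteins, the pocket protein p130, other DREAM complex subunits and the Myb proteins (Mybl1, Mybl2), 3 were higher at 1h, beside 24.1% of all genes. Below they are called DREAM genes for short, although the Myb proteins are not subunits of that complex. At 12h 1 was higher and 6 were lower, beside 22.3% and 7.82%, and at 48h 7 were lower, beside 27.2%. Their median log2 change was 0.68, -0.84 and -1.72, beside 0.59, 0.34 and -0.18 for all genes. The 3 at 1h, named after their values were seen, were Mybl1 (1.59), Lin37 (1.38) and Lin54 (0.80), and Lin37 was also the 1 gene higher at 12h (0.96, adjusted p = 0.0434). After scaling none was called at 1h (2 higher and 0 lower at an unadjusted p under 0.05), beside 5.42% of all genes higher and 4.92% lower. At 12h 7 were then lower, beside 14.5%, and at 48h 7 were lower and 1 higher, beside 22% and 24.5%. Tfdp1, the main DP partner, was at 16.07, 21.47 and 15.92 TPM at 0h, 26.33, 26.95 and 21.69 at 1h, 5.81, 6.25 and 8.28 at 12h, and 3.46, 2.31 and 4.39 at 48h. At 48h it fell by 2.39 on the log2 scale (adjusted p = 8.92e-06). Mybl2, the B-Myb partner of the same core complex in cycling cells, was at 6.64, 8.26 and 6.75 TPM at 0h, 11.95, 12.08 and 12.47 at 1h, 0.88, 0.38 and 0.97 at 12h, and 0.39, 0.23 and 0.44 at 48h (-4.04 at 48h, adjusted p = 8.33e-07). Rbl2, the third pocket protein gene, was at 2.05, 0.98 and 1.07 TPM at 0h and 2.41, 2.85 and 1.45 at 48h. Those libraries overlapped and the change of 0.69 was not called, but after scaling it was the 1 gene called higher (1.09, adjusted p = 0.016).

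The regulators upstream of RB went both ways. Of 15 cyclins, kinases and kinase inhibitors 13 passed the filter (Ccnd2 and Cdkn1c did not), and 2 were higher and 1 lower at 1h, beside 24.1% and 1.41% of all genes. At 12h these were 2 and 6, beside 22.3% and 7.82%, and at 48h 4 and 7, beside 15.9% and 27.2%. Their median log2 change was 0.60, -0.89 and -1.97, and that of all genes was 0.59, 0.34 and -0.18. After scaling the counts higher and lower were 1 and 3 at 1h, beside 5.42% and 4.92% of all genes. At 12h they were 1 and 6, beside 16% and 14.5%, and at 48h 5 and 7, beside 24.5% and 22%. Cdkn1a, which encodes the inhibitor p21, was at 1.51, 2.17 and 0.90 TPM at 0h, 4.89, 5.14 and 3.89 at 1h, 14.95, 15.09 and 16.76 at 12h, and 22.30, 24.49 and 22.10 at 48h. Each step was without overlap, and the log2 changes at 1h, 12h and 48h were 1.61, 3.35 and 3.90. Cdkn2b, which encodes the inhibitor p15, was the other gene with the greatest increase at 48h, from 1.42, 1.09 and 1.32 to 2.65, 2.98 and 6.80 TPM (1.5, adjusted p = 0.00481).

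Ccne2, which encodes a cyclin that activates the kinase CDK2, was at 5.27, 2.79 and 2.74 TPM at 0h, 10.79, 11.84 and 8.69 at 1h, 0.81, 0.72 and 0.33 at 12h, and 0.06, 0.06 and 0.03 at 48h. It peaked at 1h and was lowest at 48h without overlap between time points (1.57 at 1h, adjusted p = 0.00683, 0.91 and not called after scaling, and -4.56 at 48h). Cdkn2c, which encodes the inhibitor p18, went from 1.91, 1.34 and 1.69 TPM at 0h to 0.68, 0.82 and 1.04 at 12h, and at 48h it was listed at 0 in replicate 1 and was at 0.27 and 0.19 in the others (-2.97, adjusted p = 0.000123). Ccnd1, the gene called lower at 1h and chosen here after its values were seen, was at 15.11, 18.65 and 19.22 TPM at 0h, 2.79, 3.03 and 4.01 at 1h, 7.94, 8.65 and 8.51 at 12h, and 21.70, 24.82 and 27.52 at 48h. The D cyclin it encodes acts on RB through CDK4 and CDK6, and it was lower at 1h (-2.40, adjusted p = 1e-05). After scaling Ccnd3 (-0.69) and Cdk6 (-1.03) were called lower at 1h as well.

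Of 22 textbook E2F target genes for DNA replication, nucleotide synthesis and the cell cycle, 3 were higher at 1h and none lower, beside 24.1% and 1.41% of all genes. At 12h none was higher and 18 were lower, beside 22.3% and 7.82%, and at 48h all 22 were lower, beside 27.2%. Their median log2 change was 0.50, -2.40 and -4.25, where the median of all genes was 0.59, 0.34 and -0.18. After scaling 19 were lower at 12h and 21 at 48h, beside 14.5% and 22% of all genes, and at 1h 1 was higher, beside 5.42%. At an unadjusted p under 0.05, 0 were lower at 1h and 0 higher at 12h or 48h. Named after their values were seen, the 3 higher at 1h were Ezh2 (1.33), Pola1 (0.73) and Tyms (0.55), of which Ezh2 was called after scaling (0.67, adjusted p = 0.048). The 4 not called at 12h were Cdk1 (-0.89), Cdc25a (-0.60), Tyms (-0.02) and Orc1 (0.22), and Orc1 was the gene not called at 48h after scaling (-0.96, adjusted p = 0.0762). Ccna2, the gene of cyclin A2, was at 15.51, 14.18 and 11.79 TPM at 0h, 24.68, 20.80 and 16.60 at 1h, 5.35, 4.55 and 5.72 at 12h, and 0.04, 0.03 and 0 at 48h. Cdk1, the kinase that drives mitosis, was at 22.82, 24.90 and 14.51 TPM at 0h and 11.18, 9.85 and 11.69 at 12h, and at 48h it was listed at 0 in replicates 1 and 2 and was at 0.32 in replicate 3. In the same 48h libraries E2f1 was at 1.03 TPM or more and E2f4 at 3.64 or more.

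**Figure D4:**
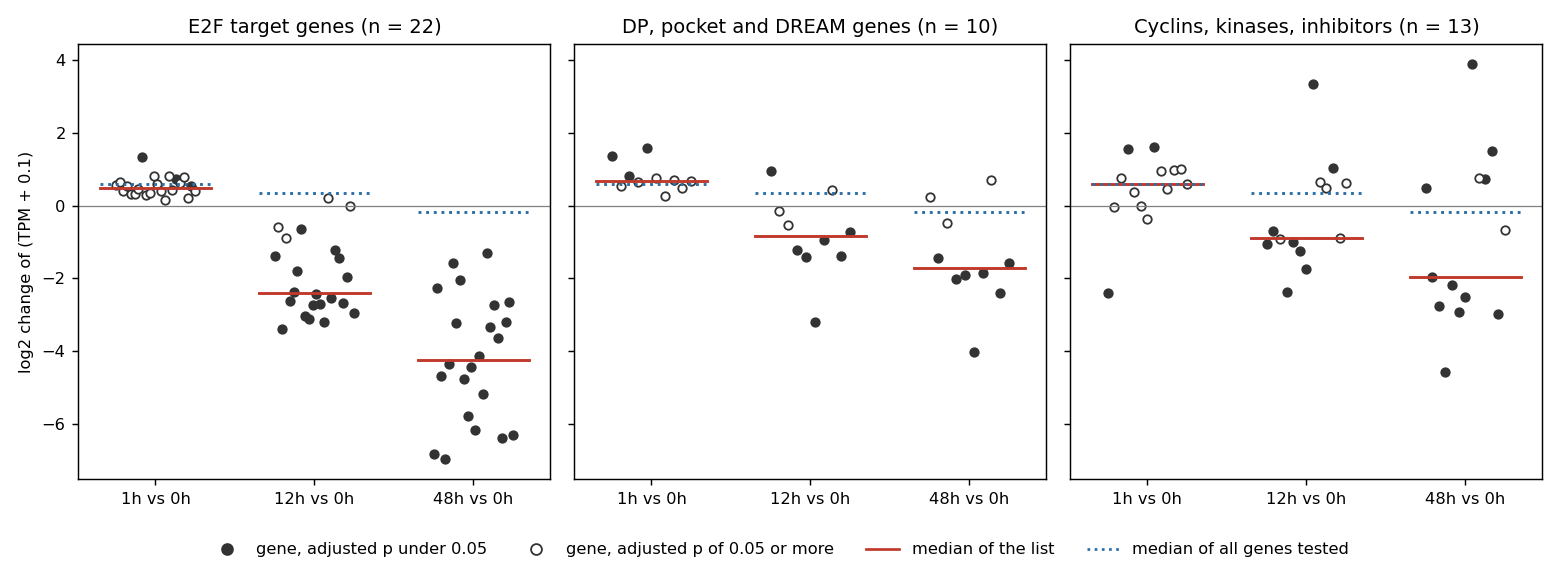
Log2 change of TPM + 0.1 against 0h for each tested gene of the 3 lists (vertical axis); filled points have an adjusted p under 0.05, red lines mark the median of the list and dotted blue lines that of all genes tested. Of the 22 target genes 21 lie between 0.17 and 0.83 at 1h, around the 0.59 of all genes, with Ezh2 above them at 1.33, and all 22 lie below the median of all genes at 48h, while the cyclins, kinases and inhibitors spread to both sides.

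For each member called against 0h, the genes closest to it in pattern were taken by Pearson r of log2(TPM + 0.1) over the 12 libraries. The comparison was among 8313 genes whose TPM averaged 1 or more, with predicted genes and clone names left out. These libraries share their time points and their scaling, so r describes the pattern only. E2f2 was closest to Cdc6 (r = 0.995), which loads the replicative helicase, and to Nasp (r = 0.995), a histone chaperone, and both stayed its closest genes after scaling. E2f4 was closest to Nup93 (r = 0.991), a nuclear pore gene, and Kifc5b (r = 0.99), and E2f8 to Cbx2 (r = 0.986), a Polycomb gene, and Tmem131l (r = 0.982). Rbl1 was closest to Cecr2 (r = 0.993) and Rif1 (r = 0.99), which acts in replication timing. E2f1 had Tmem64 (r = 0.956) and then another member, E2f8 (r = 0.953). E2f3 had Umps (r = 0.987) and Fancd2 (r = 0.987), E2f6 had Nutf2 (r = 0.981) and Hus1 (r = 0.981), and Rb1 had Zc3h7a (r = 0.946) and Foxj2 (r = 0.939). E2f7 had Prpf38b (r = 0.986) and Tti1 (r = 0.985). After scaling the genes named for E2f2, E2f4, Rb1 and Rbl1 ranked between 1 and 4, and those for E2f1, E2f6 and E2f8 between 1 and 24. The ranks of Umps and Fancd2 for E2f3 were then 119 (r = 0.91) and 400 (r = 0.86), and those of Prpf38b and Tti1 for E2f7 were 1379 (r = 0.705) and 64 (r = 0.884).

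In promoter capture Hi-C all 10 members had a captured fragment, and the lists held 150, 125, 118 and 138 of their interactions at 0h, 1h, 12h and 48h. With 1 merged list per time point there is no replicate error and no test. The median gene with a captured promoter had 5 interactions at each time point and the upper quartile was 13. Of the 150 interactions of 0h, 54.0% were listed again at 48h (81 fragment pairs, 95% Wilson interval 46.0 to 61.8, counting error only), and 70.7% had a 48h interaction within 10 kb. E2f8 held 27 of the 81 pairs and Rb1 held 26. Neighbouring fragments of 1 gene are not independent, so the interval is too narrow for the members. The same share over all captured promoters was not computed. Rb1 and E2f8 had the most interactions at each time after 0h. Rb1, with 2 captured fragments of which 1 is shared with Lpar6, had 41, 37, 41 and 43 interactions, and E2f8, whose fragment is shared with Gm2788, had 29, 37, 37 and 36. The highest score at 0h, where the list gives CHiCAGO scores, was 19.8 for E2f8, with a fragment at chr7:48754460-48758580 that was listed at all 4 time points. For Rb1 it was 17.2, between its fragment inside the gene (chr14:73230972-73244405) and the captured promoter of Rcbtb2 at chr14:73122654-73127269, also listed at all 4. The fragment at the annotated start of Rb1 (chr14:73323895-73328761) had a score of 12.6 at 0h with the same Rcbtb2 fragment.

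E2f2, whose RNA was at or below 0.04 TPM at 48h, had 14, 9, 11 and 3 interactions, and 1 of the 14 of 0h was listed at 48h. At 12h, with 11 interactions listed, its RNA was already between 0.12 and 0.14 TPM. The 14 fragments lay on its upstream side, between 96.2 and 294 kb from the captured fragment, and the highest score was 10.1 at chr4:136057345-136071454, a fragment listed at 0h, 1h and 12h and not at 48h. E2f4 had 6 and 8 interactions at 0h and 1h and none at 12h and 48h, although its RNA at 12h overlapped that of 0h. E2f6 went the other way, with 10, 3, 10 and 24 interactions, while its RNA was lowest at 48h. E2f5 had 37, 18, 11 and 16, with the most at 0h, and its RNA was not called. E2f1 had 9, 7, 7 and 11, of which 6 were listed at every time point. E2f3, E2f7 and Rbl1 had at most 3 interactions in any list. Among the members called at 48h, interaction numbers and RNA thus moved the same way from 0h for E2f2, E2f4 and the total of Rb1. They moved in opposite directions for E2f1, E2f3, E2f6 and E2f8, while the numbers of E2f7 (1) and Rbl1 (2) were the same at both times. For Rb1 (41 to 43), E2f1 (9 to 11) and E2f3 (1 to 2) the direction rests on very few interactions in single lists. The total of Rb1 also pools 2 captured fragments that went opposite ways. The fragment at the annotated start of Rb1 had fewer interactions at 48h than at 0h, although Rb1 RNA was higher. The fragment inside the gene had more. No test was possible.

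**Figure D5:**
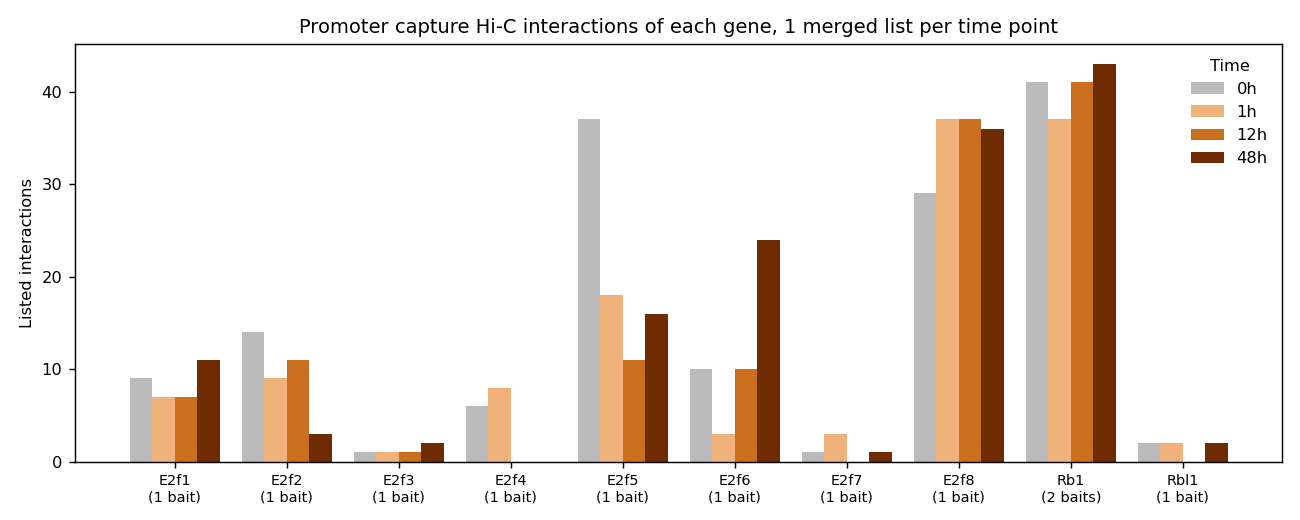
Number of listed promoter capture Hi-C interactions (vertical axis, from 0) of each gene at 0h, 1h, 12h and 48h, 1 merged list per time point and no error bars for that reason. E2f2 goes from 14 at 0h to 3 at 48h and E2f6 from 10 to 24. The total of Rb1 stays between 37 and 43, although its 2 captured fragments went opposite ways from 0h to 48h.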

How the data were processed

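RNA-seq and promoter capture Hi-C of C10 cells at 0h, 1h, 12h and 48h were analysed; Hi-C was not analysed here. For RNA-seq the authors trimmed reads with Trim Galore 0.6.2, aligned them with HISAT2 2.1.0 to mm10, used the Ensembl annotation of GRCm38 and deposited TPM from RSEM, with technical replicates merged. TPM keep no depth, and the kit named in the labels does not mark strand, so overlapping antisense genes are not separated. For promoter capture Hi-C (HindIII) the authors merged 2 replicates and deposited interactions with a CHiCAGO score of at least 5. The score is given at 0h only, and the numbers in the lists of 1h, 12h and 48h, whose unit the sources used here do not name, served only to show which interactions are listed. An interaction was given to a gene where a fragment holds one of its transcription start sites (GENCODE M21).

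The 16412 genes whose TPM averaged 0.1 or more over the libraries were fitted on log2(TPM + 0.1) with limma 3.58.1 in R 4.3.3 (lmFit, eBayes with a mean-variance trend), with all 12 libraries and time point as the only term. Adjustment of p-values (Benjamini-Hochberg) was over all genes tested, and a gene was called higher or lower at an adjusted p under 0.05. A second rule also asked for a log2 change beyond 1. The p-values measure the spread between 3 libraries per time point. Other steps used Python 3.11.15, pandas 2.3.3, numpy 2.4.6 and scipy 1.17.1. The fit was tested on simulated data. No pair of libraries was identical. The members and lists were chosen with earlier results of these data known, so their counts are given beside those of all genes and no list was tested. Named were all 10 members, and the 2 genes of each list with the largest called increase and the 2 with the largest called decrease at 48h. The 2 genes with the highest r to each member called against 0h were named as well, with predicted genes and clone names left out. Alternatives varied the pseudocount, filter, scaling, trend, libraries fitted, replicate block and single libraries, and libraries numbered 3 were left out in 1 alternative chosen after seeing the data. Values of 1 marker list and 1 interaction are not reported here.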

Additional observations from a re-analysis of the deposited data

How the results depend on the processing

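Which members were called at 48h was the most stable result and the calls at 1h and from 12h to 48h the least. At 48h 8 members were lower under every other setting, 1 more (E2f5) without replicate 3 of 0h, and 1 was higher except with only the libraries compared (0). Median-of-ratios scaling and rescaling without the 20 most abundant genes each left 1 of 4 members higher at 1h, and leaving out the libraries numbered 3, which were less like the others of their time point, left 2. For the decrease from 12h to 48h, against 7 as deposited, the counts were 4 with a pseudocount of 1, 4 with only the libraries compared, 3 without the libraries numbered 3, 1 with the rescaling and 0 with median-of-ratios scaling, under which 1 member was higher; leaving out 1 library gave 4 to 7, the lowest without replicate 3 of 12h. From 1h to 12h the rescaling gave 5 lower in place of 8. The cause was not tested.

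Member changes that crossed 0 were not called in either form, except where named. With median-of-ratios scaling the 1h changes of E2f2 (-0.16), E2f3 (-0.51), E2f4 (-0.15) and E2f6 (-0.43), the 12h against 1h change of E2f5 (0.20) and the 48h against 12h changes of E2f3 (0.015, called as deposited), E2f5 (0.019) and Rb1 (0.48) crossed 0. With the rescaling so did E2f3 (-0.35) and E2f6 (-0.26) at 1h, E2f5 at 12h against 1h (0.16) and Rb1 at 48h against 12h (0.29), and without the libraries numbered 3 E2f3 at 1h (-0.0015) and E2f1 at 48h against 12h (-0.0074). Leaving out 1 library turned E2f5 at 1h (range -0.42 to 0.35, without replicate 1 of 0h 0.35 or replicate 3 of 1h 0.062), at 12h (-0.50 to 0.27, without replicate 1 of 0h 0.27 or replicate 2 of 12h 0.049) and from 1h to 12h (-0.33 to 0.083, without replicate 2 of 12h 0.083). It also turned E2f1 from 12h to 48h (-0.088 to 0.15; without replicate 1 of 12h -0.086, replicate 1 of 48h -0.00033 or replicate 3 of 48h -0.088). Of the calls, Rbl1 at 1h (0.66) was lost without replicate 2 (0.60) or 3 (0.53) of 0h or replicate 1 (0.61) or 2 (0.59) of 1h. E2f4 from 1h to 12h was lost without replicate 1 of 1h (-0.68), replicate 1 of 12h (-0.67) or replicate 2 of 12h (-0.69). E2f6 from 1h to 12h was lost in 10 of the 12 fits that left out 1 library (highest adjusted p = 0.163). E2f3, E2f7 and E2f8 from 12h to 48h were lost without replicate 3 of 12h (-0.54, -1.55 and -0.68), E2f3 also without replicate 2 of 12h (-0.63) or replicate 1 (-0.68), 2 (-0.66) or 3 (-0.57) of 48h, and E2f8 also without replicate 2 of 12h (-0.64) or of 48h (-0.60). Calls gained were E2f4 at 1h without replicate 3 of 12h (0.51), E2f6 at 12h without replicate 2 of 12h (-0.88), E2f7 at 12h without replicate 1 of 48h (-0.82) and Rb1 at 1h without replicate 1 of 0h (1.15; without replicate 3 of 0h it was 0.54).

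Counts in the lists rest on few genes near the threshold. At 1h, of the DREAM list 3 were higher, with 5 under a pseudocount of 1, 0 under either other scaling and 1 without the libraries numbered 3. Of the upstream list 2 were higher, with 4 under a pseudocount of 1, 6 with only the libraries compared and 1 under either other scaling, which gave 3 lower in place of 1. Of the targets 3 were higher, with 8 under a pseudocount of 1, 7 with only the libraries compared, 1 with median-of-ratios scaling, 0 with the rescaling and 1 without the libraries numbered 3. At 12h the 1 DREAM gene called higher was 0 with no filter, either other scaling, no trend, only the libraries compared or without the libraries numbered 3, and the 2 upstream genes were 1 with a pseudocount of 1, median-of-ratios scaling, no trend, only the libraries compared or without the libraries numbered 3. At 48h the DREAM count higher was 1 with median-of-ratios scaling in place of 0, and the upstream count was 2 in place of 4 with only the libraries compared and without the libraries numbered 3. Leaving out 1 library gave 0 to 1 at 12h and 0 to 1 at 48h for DREAM genes, 1 to 4 at 1h for targets, and 2 to 4 at 1h, 1 to 2 at 12h and 2 to 4 at 48h for upstream genes.

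The log2 ratio of activators to repressors, -1.21, -0.91, -2.39 and -1.47 at 0h, 1h, 12h and 48h, was -0.48, -0.16, -1.81 and -1.25 from mean log2 values and -1.63, -1.79, -2.67 and -1.78 with E2f7 and E2f8 in the lower set, lowest at 12h each time. With a score of at least 10, 21 of the 150 interactions of 0h were left. Of all 150, the share with a 48h interaction was 70.7% within 10 kb, in place of 54.0% for the same fragment pairs.

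The replicate numbers were not taken to pair the libraries, since not every pair passed 0.1. Of 18 pairs with the same number 7 had deviations correlated over 0.1 (range -0.012 to 0.257), and 7 of 12 libraries were closest to one of their own number. The libraries numbered 3 did go together, with 5 of their 6 pairs over 0.1 (0.0698 to 0.257) and all 24 correlations with libraries of other numbers at other times below 0 (-0.181 to -0.00589). With the replicate block 5 members were higher at 1h in place of 4 (Rb1 added) and 6 lower from 12h to 48h in place of 7 (E2f3 not called), 4 upstream genes were higher at 1h in place of 2, and 0 DREAM genes were higher at 12h.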
